A study of Homo sapiens with 51 samples.

Results

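Vimentin and 9 genes of the contractile actin cytoskeleton were followed across human pancreatic ductal adenocarcinoma lines in which the transcription factor OVOL2 was overexpressed. The 10 genes were VIM, TPM1, TPM2, TPM4, CALD1, CNN1, CNN3, TAGLN, MYL9 and ACTA2. They were taken by symbol from the count table, which lists 25421 gene symbols, and all 10 were found there once. Bulk RNA-seq by PLATE-seq, a pooled method that reads the 3′ ends of transcripts, gave 51 libraries in 17 groups of 3. All 5 lines (HPAFII, KP4, PATU8988S, PK45H and PANC1) were sequenced untreated. KP4, PANC1 and PK45H were also sequenced after lentiviral delivery of OVOL2 or, as the control, of the fluorescent protein mCherry. Each virus was given alone, or together with a second lentivirus carrying M2rtTA, a transactivator of doxycycline-inducible promoters. All transduced groups shared a multiplicity of infection of 2, 8 µg/ml of polybrene, 2.5 µg/ml of puromycin and 0.6 µg/ml of doxycycline, with 6 days of culture in total. Each line is a single cell line, and the labels speak of triplicates without saying that these were separate cultures. P-values therefore measure the spread between these libraries, which may be technical. In bulk RNA, fewer cells that express a gene and less of its RNA per cell cannot be told apart.

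Vimentin forms the intermediate filaments of mesenchymal cells and is a standard marker of epithelial-mesenchymal transition, the loss of epithelial character that carcinoma lines show to different degrees. Tropomyosins wind along actin filaments and set which myosins and severing proteins reach them. Caldesmon, calponins and transgelin bind actin as well and restrain or stabilise contractile bundles. Regulatory myosin light chain and smooth muscle actin build the bundles themselves. OVOL2 is a zinc finger repressor known for holding epithelial cells in their state.

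OVOL2 counts were low in every transduced group. Without M2rtTA the OVOL2 level was 1.17 ± 0.48 CPM (counts scaled to library size, SD, n = 3) in KP4 OVOL2 libraries and 1.12 ± 1.01 in mCherry libraries, and over the 3 lines the difference was -0.09 ± 0.46 (log2, SE, adjusted p = 0.926). With M2rtTA it was 2.15 ± 0.44 higher over the lines (adjusted p = 0.00021). Whether 3′-end counts read the introduced OVOL2 sequence was not tested, so its level is a limited check of the treatment. Library totals ran from 1165399 to 7490556 counts, and 1 of the 51 libraries, HPAFII untreated replicate 2, had both the lowest total and member levels unlike its 2 partners. The 5 ductal epithelial markers (KRT8, KRT18, KRT19, KRT7 and EPCAM) summed to between 603 and 14200 CPM. The 11 fibroblast and smooth muscle markers, from cells that express the same contractile genes, summed to between 12 and 75.4 CPM, and 2 of them reached no more than 3 counts in any library. The 10 members made up between 0.0819% and 0.4726% of a library's counts. Levels are given in CPM, which are not per length, so they are compared within a gene only.

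VIM was lower with OVOL2 in all 3 lines without M2rtTA. In KP4 the 3 mCherry libraries held 1981, 1676 and 1741 CPM of VIM and the 3 OVOL2 libraries 390, 384 and 388 CPM. In PANC1 the mCherry libraries held 2817, 2623 and 2972 CPM against 634, 730 and 680 CPM with OVOL2. PK45H started far lower, at 203, 248 and 213 CPM with mCherry and 77.9, 108 and 94.0 CPM with OVOL2. In no line did the OVOL2 and mCherry libraries overlap. KP4 had a log2 change of -2.22 ± 0.09 (SE, edgeR quasi-likelihood test with Benjamini-Hochberg adjustment over all genes, adjusted p = 1.53e-08). For PANC1 it was -2.05 ± 0.11 (adjusted p = 1.55e-07). PK45H showed the smallest of the 3 changes, -1.33 ± 0.18 (adjusted p = 0.000369). Over lines VIM fell by 1.85 on the log2 scale (SE 0.07, adjusted p = 2.13e-19).

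With M2rtTA, VIM was again lower in KP4 and PANC1. KP4 mCherry libraries held 1552, 1675 and 1383 CPM and OVOL2 libraries 485, 519 and 471 CPM, a log2 change of -1.64 ± 0.09 (adjusted p = 1.6e-07). PANC1 mCherry libraries held 2637, 2545 and 2821 CPM and OVOL2 libraries 596, 784 and 749 CPM, a log2 change of -1.92 ± 0.11 (adjusted p = 1.31e-07). In PK45H all 3 OVOL2 libraries (165, 157 and 197 CPM) lay below all 3 mCherry libraries (235, 247 and 244 CPM), but the change of -0.43 ± 0.18 did not pass the test (adjusted p = 0.121). The VIM change differed between the lines both without M2rtTA (adjusted p = 0.00246) and with it (adjusted p = 1.01e-06). Over lines it was -1.33 ± 0.07 with M2rtTA (adjusted p = 2.93e-16), which was 0.52 ± 0.10 closer to 0 than without it (adjusted p = 0.00109).

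**Figure D1:**
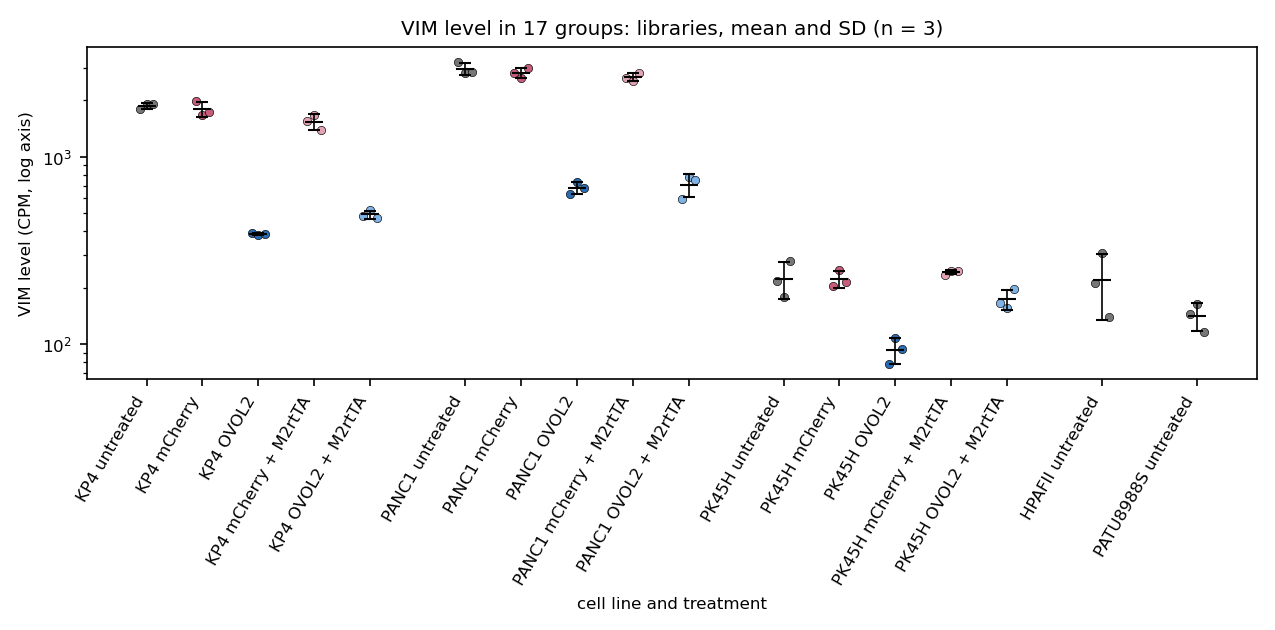
VIM level in CPM (vertical log axis) in 17 groups of cell line and treatment (horizontal axis). Points are the 3 libraries of a group, and the bar and whiskers are the mean and SD. In KP4 and PANC1 both OVOL2 groups lie below every mCherry and untreated library, and the lowest group is PK45H OVOL2 without M2rtTA, with libraries between 77.9 and 108 CPM.

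Neither mCherry against untreated cells nor M2rtTA added to mCherry moved VIM past the test. The labels do not say whether untreated cells received polybrene, puromycin or doxycycline, so the first comparison may hold their effects beside that of the virus. Its log2 difference between mCherry and untreated libraries was -0.05 ± 0.09 (KP4), -0.08 ± 0.11 (PANC1) and 0.04 ± 0.18 (PK45H), with adjusted p from 0.868 to 0.982. By the same edgeR test 0 of the 9 members tested differed between mCherry and untreated cells in any of the 3 lines, against 0%, 0.598% and 0.00736% of all genes tested in KP4, PANC1 and PK45H. M2rtTA added to mCherry changed 0 of the 9 members as well, against 0%, 0% and 0.0294% of all genes in those lines. At an unadjusted p under 0.05, between 812 and 1358 genes of the whole table differed in these 6 comparisons. DESeq2 also called 0 members in each of the 6, and it called between 11 and 191 genes of the whole table.

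TPM2, the beta tropomyosin, fell most in KP4. Its level in the KP4 mCherry libraries was 707, 558 and 529 CPM, and with OVOL2 it was 310, 309 and 267 CPM. With M2rtTA it went from 568, 709 and 540 CPM with mCherry to 150, 128 and 108 CPM with OVOL2. Neither pair of groups overlapped, and TPM2 fell by 1.02 (SE 0.14, adjusted p = 0.00084) and by 2.23 (SE 0.15, adjusted p = 8.49e-07) on the log2 scale.

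PANC1 showed a fall of TPM2 with M2rtTA, and without it the change did not pass (-0.05 ± 0.12, adjusted p = 0.86). Without M2rtTA the PANC1 mCherry libraries held 938, 854 and 878 CPM of TPM2 and the OVOL2 libraries 824, 831 and 936 CPM, which overlap. With M2rtTA the values were 948, 895 and 1075 CPM against 330, 446 and 399 CPM, a log2 change of -1.32 ± 0.12 (adjusted p = 6.66e-06). In PK45H, where TPM2 was low throughout, the changes of -0.46 ± 0.29 and -0.40 ± 0.29 did not pass (adjusted p = 0.36 and 0.391). Without M2rtTA all PK45H OVOL2 libraries (43.52 to 56.68 CPM) still lay below all mCherry libraries (58.05 to 70.46 CPM). With M2rtTA the groups overlapped, and the PK45H mCherry libraries held 120, 59.0 and 60.3 CPM. Over lines the TPM2 change was -0.49 ± 0.12 without M2rtTA (adjusted p = 0.00258) and -1.32 ± 0.12 with it (adjusted p = 7.41e-11). The 2 differed by -0.82 ± 0.17 (adjusted p = 0.0014), and with M2rtTA the change differed between lines (adjusted p = 0.000317).

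TPM1, the alpha tropomyosin, moved in opposite directions in PANC1 and PK45H. PANC1 held 108, 98.5 and 119 CPM of TPM1 with mCherry and 184, 158 and 174 CPM with OVOL2. With M2rtTA it held 107, 130 and 115 CPM against 162, 167 and 204 CPM. The groups did not overlap in either case, and the log2 changes were 0.66 ± 0.14 (adjusted p = 0.0118) and 0.60 ± 0.14 (adjusted p = 0.00907).

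PK45H showed the reverse for TPM1. Without M2rtTA it held 105, 86.5 and 118 CPM with mCherry and 69.7, 62.0 and 84.7 CPM with OVOL2. With M2rtTA it held 95.6, 111 and 116 CPM against 68.2, 75.4 and 68.7 CPM. Every OVOL2 library was below every mCherry library, and the log2 changes were -0.58 ± 0.16 (adjusted p = 0.0366) and -0.55 ± 0.16 (adjusted p = 0.0324). In KP4 the TPM1 changes of 0.28 ± 0.20 and -0.07 ± 0.20 did not pass the test. The difference between lines passed both without M2rtTA (adjusted p = 0.00524) and with it (adjusted p = 0.00543), and the average over lines was near 0, at 0.13 ± 0.10 and -0.01 ± 0.10. The sign of the second average turned to 0.01 with RLE scaling. The PK45H calls are near the threshold: without M2rtTA the call was lost when any 1 of 5 libraries was left out, mCherry replicates 1 and 3, OVOL2 replicates 1 and 2 or mCherry + M2rtTA replicate 3 (adjusted p from 0.0504 to 0.14). With M2rtTA the TPM1 call was lost without mCherry + M2rtTA replicate 2 or 3 or any of the 3 OVOL2 + M2rtTA libraries (adjusted p from 0.0521 to 0.108). In PANC1 without M2rtTA, leaving out mCherry replicate 2 gave an adjusted p of 0.0585. Fits of only the groups compared lost the TPM1 call in both arms of PANC1 (adjusted p = 0.0509 and 0.0572) and of PK45H (0.0944 and 0.0602).

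TPM4, a tropomyosin of non-muscle cells, rose in PK45H and fell in KP4 with M2rtTA. PK45H held 335, 326 and 373 CPM of TPM4 with mCherry and 520, 528 and 544 CPM with OVOL2, a rise of 0.55 ± 0.12 (log2, adjusted p = 0.00956). With M2rtTA it held 335, 295 and 292 CPM against 466, 355 and 365 CPM, also without overlap, a change of 0.42 ± 0.12 (adjusted p = 0.0261). KP4 with M2rtTA went the other way, from 667, 730 and 638 CPM to 402, 396 and 437 CPM, a change of -0.71 ± 0.12 (adjusted p = 0.000746).

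KP4 without M2rtTA showed no such fall of TPM4, at 722, 609 and 510 CPM with mCherry and 684, 576 and 566 CPM with OVOL2 (-0.02 ± 0.12, adjusted p = 0.967). PANC1 without M2rtTA held 257, 287 and 342 CPM against 428, 400 and 481 CPM, and its change of 0.55 ± 0.15 passed narrowly (adjusted p = 0.0494). That TPM4 call was lost when any 1 of 13 of the 15 PANC1 libraries was left out (adjusted p from 0.0551 to 0.17), and it was lost with the replicate number as a block (adjusted p = 0.0576). The PK45H call with M2rtTA was lost without mCherry + M2rtTA replicate 2, mCherry + M2rtTA replicate 3 or OVOL2 + M2rtTA replicate 1, with values of 0.39, 0.38 and 0.29, and also with no filter on low counts (adjusted p = 0.118) and when only the groups compared were fitted (adjusted p = 0.103). Over lines the TPM4 change was 0.38 ± 0.07 without M2rtTA (adjusted p = 0.000275) and -0.06 ± 0.07 with it (adjusted p = 0.563). These differed by -0.44 ± 0.11 (adjusted p = 0.00664), and with M2rtTA the lines differed (adjusted p = 0.000218).

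**Figure D2:**
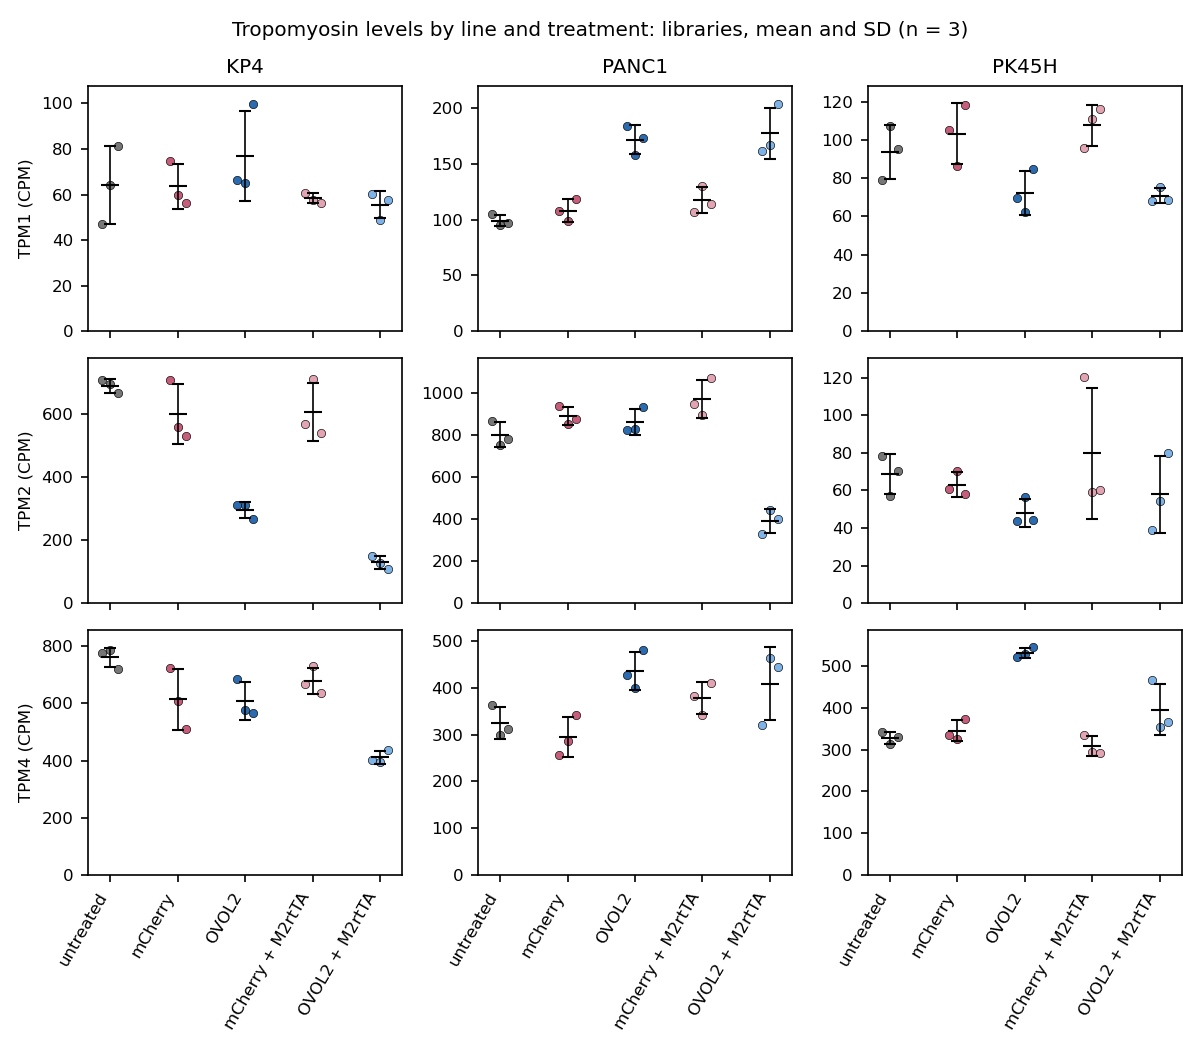
TPM1, TPM2 and TPM4 levels in CPM (vertical axes, from 0) in 5 treatments of KP4, PANC1 and PK45H (columns). Points are the 3 libraries of a group, and the bar and whiskers are the mean and SD. Within KP4 and within PANC1, TPM2 is lowest in the OVOL2 + M2rtTA group, at 129 and 391 CPM on average, while all PK45H groups average between 48.1 and 79.8 CPM, and TPM1 with OVOL2 lies above mCherry in PANC1 and below it in PK45H.

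The tropomyosins changed unequally. The log2 ratio of TPM2 to TPM4, from CPM with 1 CPM added, averaged -1.17 with OVOL2 and -0.29 with mCherry over the lines without M2rtTA, a difference of -0.88 (exact permutation of labels within lines, two-sided, 8000 assignments, adjusted p = 0.002 over the 8 ratios tested, with a raw p of 0.00025, the smallest the design can give). With M2rtTA the difference was -1.24 (exact permutation, adjusted p = 0.003), and all 6 within-line differences were below 0, from -0.61 to -1.51. The ratio of TPM2 to TPM1 fell by 0.62 (exact permutation, adjusted p = 0.0184) and by 1.30 with M2rtTA (adjusted p = 0.008 by the same exact permutation), but in PK45H it was 0.12 and 0.16 higher with OVOL2. For TPM1 to TPM4 the differences of -0.26 and 0.06 did not pass (exact permutation, adjusted p = 0.216 and 0.768). The tropomyosin genes are similar in sequence, and the authors' counting could split reads between them, so these ratios are uncertain to that extent.

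MYL9, the regulatory light chain of non-muscle and smooth muscle myosin, rose in PANC1. Its level there was 85.7, 80.5 and 80.3 CPM with mCherry and 204, 165 and 232 CPM with OVOL2. With M2rtTA it was 94.4, 97.6 and 116 CPM against 248, 339 and 324 CPM. All OVOL2 libraries stood above all mCherry libraries, and the log2 changes were 1.28 ± 0.15 (adjusted p = 0.000255) and 1.56 ± 0.15 (adjusted p = 1.55e-05).

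KP4 and PK45H expressed little MYL9, between 6.05 and 22.9 CPM over their 30 libraries, and none of their 4 comparisons passed (log2 changes of -0.02, 0.62, 0.15 and 0.13, adjusted p from 0.192 to 0.982). The MYL9 change differed between lines with M2rtTA (adjusted p = 0.0313), while without it the difference did not pass (adjusted p = 0.0726). The first was lost when libraries were thinned to the smallest total (adjusted p = 0.246) and when only the groups compared were in the fit (adjusted p = 0.15). It was also lost without any 1 of 8 libraries, all of them from mCherry + M2rtTA or OVOL2 + M2rtTA groups of PANC1 or PK45H (adjusted p from 0.0502 to 0.0953). Over lines MYL9 was 0.49 ± 0.16 higher without M2rtTA (adjusted p = 0.029) and 0.77 ± 0.16 higher with it (adjusted p = 0.000219). The rise without M2rtTA did not pass when any 1 of 8 libraries was left out, with changes from 0.38 (KP4 OVOL2 replicate 2) to 0.47.

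ACTA2, smooth muscle alpha actin, was scarce and lower with OVOL2 in parts of the design. In KP4 with M2rtTA the mCherry libraries held 19.0, 16.6 and 19.3 CPM and the OVOL2 libraries 7.48, 5.84 and 7.31 CPM, a log2 change of -1.41 ± 0.26 (adjusted p = 0.00147). In PK45H without M2rtTA the values were 15.2, 8.38 and 12.8 CPM against 4.33, 4.67 and 3.36 CPM, a change of -1.63 ± 0.33 (adjusted p = 0.00784). The groups did not overlap in either case.

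Elsewhere ACTA2 did not pass. KP4 without M2rtTA had a change of -0.62 ± 0.25 (adjusted p = 0.169), with 16.9, 13.0 and 18.7 CPM against 9.26, 8.52 and 13.9 CPM. PK45H with M2rtTA had 0.26 ± 0.32 (adjusted p = 0.637), from control libraries of 5.62, 11.1 and 5.31 CPM, and PANC1 stayed between 2.57 and 7.69 CPM in its 12 transduced libraries. Over lines ACTA2 fell by 0.83 (log2, SE 0.20, adjusted p = 0.00247) and, with M2rtTA, by 0.51 (SE 0.20, adjusted p = 0.0446). The second call was lost without any 1 of 11 libraries (adjusted p up to 0.159, without PK45H mCherry + M2rtTA replicate 2) and with RLE scaling (adjusted p = 0.0539). The difference between lines with M2rtTA (adjusted p = 0.0489) was lost in 35 of the 45 fits that left out 1 library. ACTA2 shares long stretches with the other actin genes, so its counts may take in reads of them or lose reads to them.

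CNN3, the calponin of non-muscle cells, fell in PK45H without M2rtTA. There the mCherry libraries held 51.6, 46.1 and 54.9 CPM and the OVOL2 libraries 25.5, 15.9 and 28.2 CPM, a log2 change of -1.20 ± 0.32 (adjusted p = 0.0321). With M2rtTA the OVOL2 libraries spread from 21.1 to 58.1 CPM around a mCherry mean of 43.6 CPM (SD 5.64), and the change was -0.20 ± 0.31 (adjusted p = 0.716). The call without M2rtTA was lost when any of the 6 libraries compared was left out (adjusted p from 0.0522 to 0.122) and when thinned (adjusted p = 0.201). Over lines CNN3 fell by 0.52 (SE 0.15, adjusted p = 0.0135) without M2rtTA, and with it the change was -0.19 ± 0.15 (adjusted p = 0.36). Without PK45H OVOL2 + M2rtTA replicate 3 that value was -0.36 (adjusted p = 0.0352).

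CNN1, the smooth muscle calponin, was scarce and rose over lines with M2rtTA. Its level in OVOL2 + M2rtTA libraries ran from 3.49 to 7.81 CPM in KP4 and was 6.96, 6.50 and 6.59 CPM in PANC1 and 3.60, 5.84 and 5.55 CPM in PK45H. The matching mCherry libraries held 2.87, 2.52 and 2.89 CPM, 6.22, 3.12 and 2.69 CPM, and 4.56, 3.00 and 1.18 CPM. PK45H was the line where these groups overlapped. In no line on its own did the CNN1 change with M2rtTA pass the edgeR test. The change over lines was 0.80 ± 0.23 (adjusted p = 0.00646), against -0.09 ± 0.24 without M2rtTA (adjusted p = 0.851), and the difference of the 2 did not pass (0.89 ± 0.33, adjusted p = 0.0967). The log2 ratio of CNN1 to CNN3 was 0.91 higher with OVOL2 and M2rtTA (exact permutation, adjusted p = 0.004) and 0.49 higher without M2rtTA (exact permutation, adjusted p = 0.0603). The latter passed when PANC1 OVOL2 replicate 1, PANC1 mCherry replicate 2 or KP4 mCherry replicate 3 was left out.

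CALD1, caldesmon, passed no OVOL2 comparison, and its libraries varied widely. PK45H mCherry libraries held 195, 288 and 48.2 CPM of CALD1, while the OVOL2 libraries held 146, 84.9 and 136 CPM. With M2rtTA the 3 OVOL2 libraries (37.2, 94.8 and 32.9 CPM) lay below the 3 mCherry libraries (105, 113 and 135 CPM), with a change of -1.04 ± 0.54 (adjusted p = 0.22). Over lines CALD1 changed by -0.24 ± 0.30 and -0.48 ± 0.30 (adjusted p = 0.643 and 0.235). TAGLN, transgelin, had between 0 and 18 counts per library and was tested over lines only (0.96 ± 0.65 and 0.60 ± 0.59, adjusted p = 0.339 and 0.483).

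**Figure D3:**
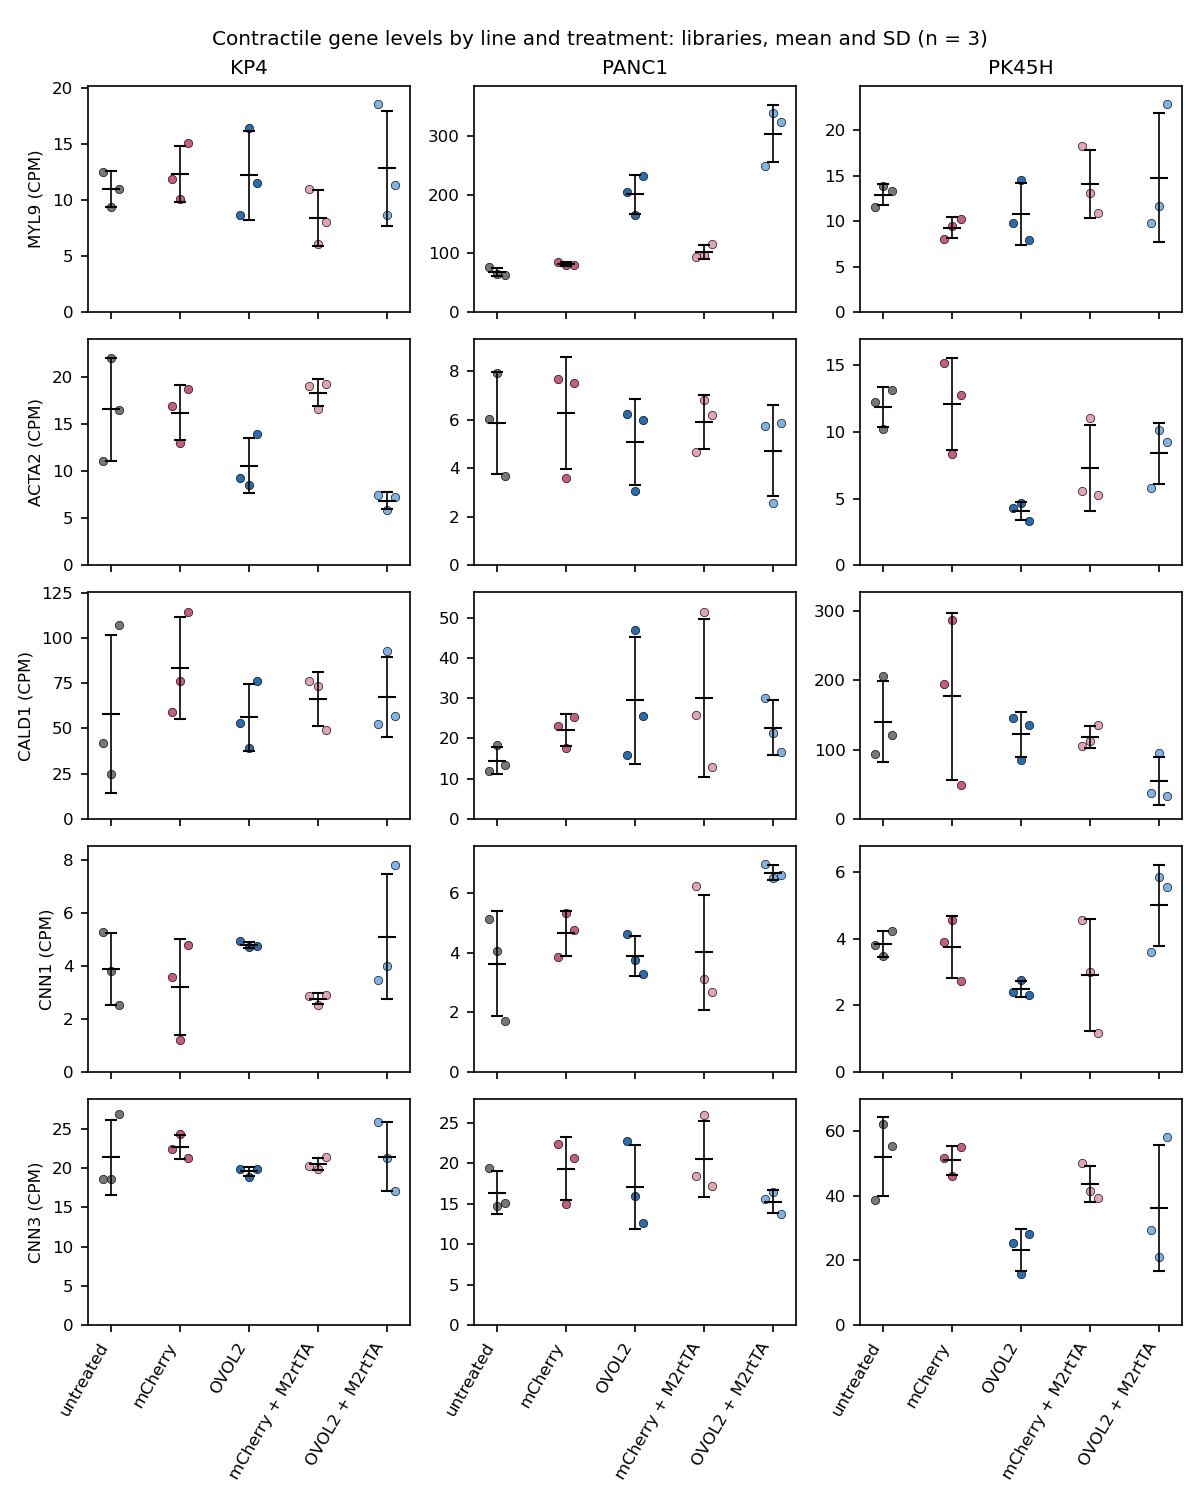
MYL9, ACTA2, CALD1, CNN1 and CNN3 levels in CPM (vertical axes, from 0) in 5 treatments of KP4, PANC1 and PK45H (columns). Points are the 3 libraries of a group, and the bar and whiskers are the mean and SD. MYL9 with OVOL2 stands above mCherry in PANC1, at 201 and 304 CPM on average against 82.2 and 103 CPM, and CALD1 shows a wide spread within groups.

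Counted together, the members changed in both directions. In KP4 without M2rtTA, 2 of 9 tested members passed, both lower, where 6.82% of 13662 genes passed (3.26% higher, 3.56% lower). In PANC1 4 passed, 3 higher and 1 lower, where 5.08% of 13218 genes did (2.12% higher, 2.96% lower). In PK45H 5 passed, 1 higher and 4 lower, where 8.39% of 13583 genes did (3.58% higher, 4.81% lower). With M2rtTA 4 passed in KP4, all lower, beside 22.4% of all genes (9.91% higher, 12.5% lower). PANC1 had 4, 2 higher and 2 lower, beside 13.9% (5.76% higher, 8.18% lower). In PK45H with M2rtTA 2 passed, 1 in each direction, beside 15.9% of all genes (7.45% higher, 8.4% lower), and that count went to 0 with no filter on low counts and when only the groups compared were fitted. Over lines 6 of 10 passed without M2rtTA (2 higher, 4 lower), where 18.1% of 14943 genes did (9.32% higher, 8.81% lower), with a median log2 change of -0.16 beside 0.00 for all genes. With M2rtTA 5 of 10 passed (2 higher, 3 lower), where 32.9% of genes did (15.7% higher, 17.3% lower), with a median of -0.13 beside 0.03. The difference between lines passed for 2 of 10 members without M2rtTA, VIM and TPM1, beside 2.74% of genes, and for 6 of 10 with it, VIM, TPM1, TPM2, TPM4, MYL9 and ACTA2, beside 7.56%. The change with M2rtTA added differed for 3 of 10, VIM, TPM2 and TPM4, beside 7.72% of genes.

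Summed fibroblast and smooth muscle markers were higher with OVOL2 in the arm with M2rtTA, a rise that lay mostly in COL1A1. Without M2rtTA the sums were not higher. They came to 49.5 to 59.7 CPM in KP4 OVOL2 + M2rtTA libraries against 26.5 to 36 CPM in the mCherry + M2rtTA libraries. In PANC1 the ranges were 59.2 to 75.4 CPM against 37.8 to 46.1 CPM, and in PK45H 35.6 to 41.2 CPM against 16.7 to 21 CPM. Without M2rtTA the KP4 ranges were 28.6 to 31 CPM against 26.7 to 32.9 CPM and the PK45H ranges 12 to 18.5 CPM against 12.6 to 17.4 CPM, while PANC1 was lower with OVOL2, at 24.9 to 32.2 CPM against 33.3 to 37.3 CPM. The collagen gene COL1A1 held much of the sum with M2rtTA, at 39.4 CPM on average with OVOL2 in KP4 against 12.6 CPM with mCherry, and at 22.2 against 4.82 CPM in PK45H. Its PANC1 libraries held 34.1, 49.9 and 60.5 CPM with OVOL2 and 21.3, 14.4 and 24.4 CPM with mCherry. COL3A1, another collagen gene, was lower there in KP4 (2.23 against 8.86 CPM) and PANC1 (0.959 against 4.29 CPM), and so was THY1, a fibroblast surface protein gene, in PANC1 (1.17 against 5.71 CPM). DES, the muscle intermediate filament gene, stayed at 0 to 2 counts in the OVOL2 + M2rtTA libraries of all 3 lines. The part of these markers in the member changes was not tested.

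**Figure D4:**
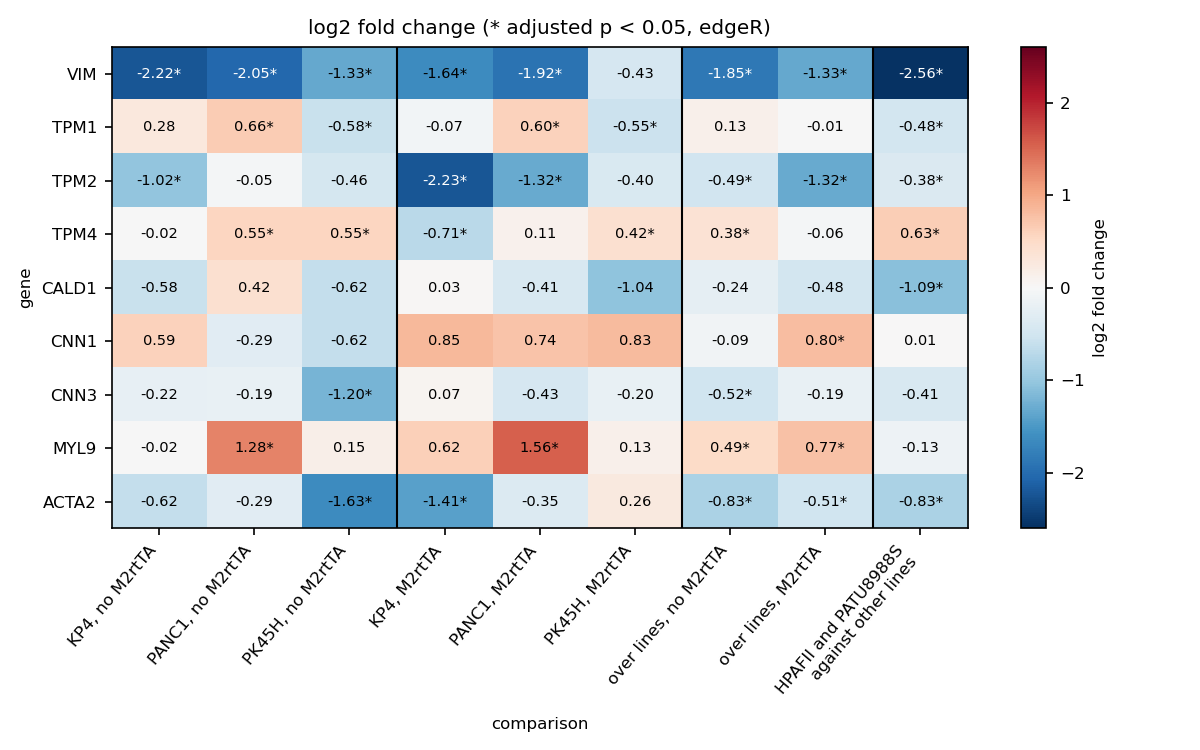
Log2 fold change (colour and printed value) of 9 members (rows) in 9 comparisons (columns): OVOL2 against mCherry in each line and over lines, without and with M2rtTA, and untreated HPAFII and PATU8988S against the other 3 lines. An asterisk marks an adjusted p under 0.05. VIM is negative in all 9 columns and passes in 8, while TPM1 and TPM4 change sign between lines.

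Untreated lines differed widely in VIM. Of all genes tested, HPAFII differed from PATU8988S, KP4, PANC1 and PK45H in 20.2%, 29.9%, 28.7% and 25.2%. PATU8988S differed from KP4, PANC1 and PK45H in 32.5%, 29.3% and 28.3%, KP4 from PANC1 and PK45H in 21.9% and 23.5%, and PANC1 from PK45H in 25.6%. PANC1 held 3206, 2800 and 2856 CPM of VIM, KP4 1800, 1918 and 1912, PK45H 216, 177 and 277, HPAFII 211, 308 and 139, and PATU8988S 145, 164 and 115. KP4 stood 3.07 above PK45H on the log2 scale (adjusted p = 2.19e-06), while HPAFII overlapped with both PK45H and PATU8988S, and these neighbouring differences of 0.06 and 0.69 did not pass (adjusted p = 0.891 and 0.0683). Every PK45H library lay above every PATU8988S library, but VIM did not pass the test between these lines. PANC1 and KP4 did not overlap but differed by 0.71, which did not pass (adjusted p = 0.0542). With OVOL2, KP4 and PANC1 libraries at 384 to 784 CPM remained above the highest untreated HPAFII or PATU8988S library, which was HPAFII replicate 2 at 308 CPM.

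TPM2 spread the untreated lines over a wide range as well. Its mean level was 802 ± 60 CPM (SD, n = 3) in PANC1, 687 ± 21 in KP4, 317 ± 78 in HPAFII, 200 ± 8.0 in PATU8988S and 68.8 ± 10.7 in PK45H. From KP4 down each neighbouring pair differed (adjusted p = 0.000483, 0.0106 and 1.34e-05), while the step from PANC1 to KP4 did not pass (0.28, adjusted p = 0.291). The HPAFII to PATU8988S call was lost without HPAFII replicate 1 (adjusted p = 0.0542).

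TPM4 had another order, with KP4 (761 ± 34 CPM), PATU8988S (672 ± 43) and HPAFII (635 ± 254) above PK45H (329 ± 14) and PANC1 (324 ± 34). The step from HPAFII to PK45H was 1.02 (adjusted p = 0.00422), and the other 3 neighbouring steps did not pass. TPM1 lay between 46.1 ± 17.8 CPM in HPAFII and 99.1 ± 5.0 in PANC1, and no neighbouring pair passed the test. Further apart, HPAFII was below PANC1 by -1.09 ± 0.27 (adjusted p = 0.00634) and below PK45H by -0.96 ± 0.26 (adjusted p = 0.0158). Both TPM1 calls were lost when only the groups compared were fitted (adjusted p = 0.0558 and 0.0998), and the second also when thinned (-0.65, adjusted p = 0.0965).

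MYL9 marked out PANC1. It averaged 68.7 ± 6.9 CPM there, 1.48 above PATU8988S on the log2 scale (25.0 ± 2.1 CPM, adjusted p = 0.00124), and no other neighbouring pair passed, down to KP4 at 11.0 ± 1.6 CPM. PK45H had the highest CNN3 (52.0 ± 12.1 CPM against 25.1 ± 15.5 in HPAFII, 1.03, adjusted p = 0.0372). That CNN3 call was lost without HPAFII replicate 1 or 3 or PK45H replicate 2 or 3 (adjusted p from 0.0782 to 0.146). PK45H also had the highest mean CALD1 level, 140 ± 59 CPM, which overlapped with KP4 (58.1 ± 43.6 CPM) and passed against HPAFII, PATU8988S and PANC1 (adjusted p = 0.00532, 0.000829 and 0.000495). ACTA2 was highest in KP4 (16.6 ± 5.5 CPM) and PK45H (11.9 ± 1.5 CPM), and CNN1 and TAGLN gave no order beyond their spread.

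Against the mean of KP4, PANC1 and PK45H, untreated HPAFII and PATU8988S differed in 6 of 9 members, where 34.8% of 13785 genes differed (17.4% higher and 17.4% lower). VIM was lower by -2.56 ± 0.18 (log2, adjusted p = 4.97e-08), CALD1 by -1.09 ± 0.34 (adjusted p = 0.0222), ACTA2 by -0.83 ± 0.22 (adjusted p = 0.00765), TPM1 by -0.48 ± 0.17 (adjusted p = 0.0419) and TPM2 by -0.38 ± 0.11 (adjusted p = 0.018). TPM4 was 0.63 ± 0.14 higher (adjusted p = 0.00318). The VIM and TPM2 contrasts average lines of unlike level, since PK45H was close to HPAFII in VIM (0.06, adjusted p = 0.891) and below it in TPM2. HPAFII replicate 2 held 17.3 CPM of CNN1 against 2.85 and 2.93 in its partners, 26.3 CPM of MYL9 against 10.1 and 9.59, and 343 CPM of TPM4 against 751 and 810. Without it 8 members passed, with CNN3 at -0.71 (adjusted p = 0.00278) and MYL9 at -0.42 (adjusted p = 0.0118) added, and CNN1 turned from 0.01 to -0.60 without passing (adjusted p = 0.129). The TPM1 call was lost in 11 of the 15 fits that left out 1 library (changes from -0.36 to -0.52). CALD1 was lost without HPAFII replicate 1 or 3 or PATU8988S replicate 2 or 3 (changes from -0.96 to -1.04). Thinned, the TPM1, CALD1 and ACTA2 calls were all lost (adjusted p from 0.0757 to 0.0877).

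**Figure D5:**
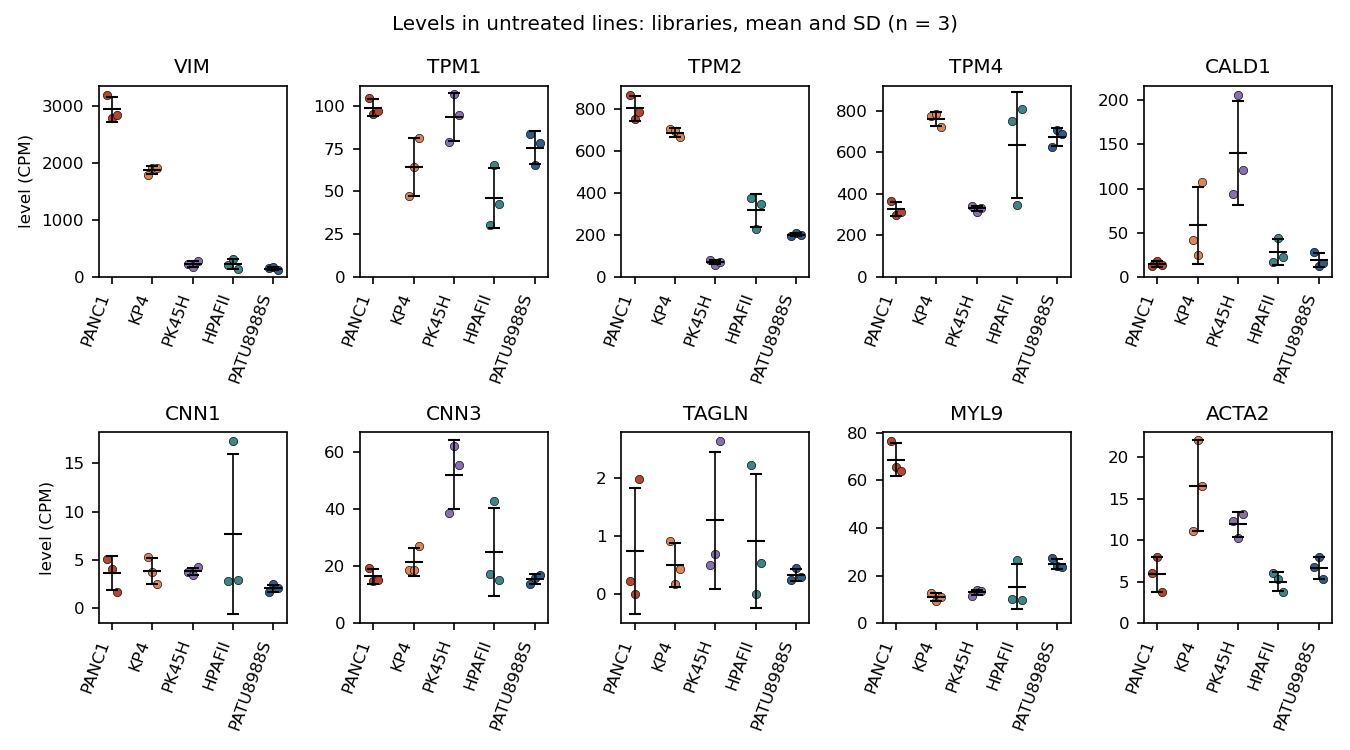
Levels of the 10 members in CPM (vertical axes) in the 5 untreated lines (horizontal axes). Points are the 3 libraries of a line, and the bar and whiskers are the mean and SD. VIM and TPM2 are highest in PANC1 and KP4, TPM4 is lowest in PK45H and PANC1, and 1 HPAFII library stands apart in CNN1, MYL9 and TPM4.

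Across the 17 group means of log2 CPM, VIM and TPM2 followed each other most closely (Pearson r = 0.87, Spearman rho = 0.86), while TPM1 went with MYL9 (r = 0.80, rho = 0.65) and CALD1 with CNN3 (r = 0.79, rho = 0.84). TPM2 and CNN3 ran opposite (r = -0.71, rho = -0.63). These 17 points share 5 lines and their library preparation, and are given as a description. Among 10274 genes with a mean of at least 5 CPM, those most like VIM over the 17 groups were PFN2 (r = 0.957), MAP1B (r = 0.953) and RNF182 (r = 0.950). Most like TPM2 were POLR2D (r = 0.966), RABIF (r = 0.957) and GLRX2 (r = 0.946), and most like CALD1 were LOC105373378 (r = 0.947), RAI14 (r = 0.946) and RFC1 (r = 0.944).

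The promoters of VIM and TPM2 are shown because the levels of these 2 genes followed each other most closely over the 17 group means. Those means include differences between untreated lines, and with OVOL2 the 2 genes also parted. In PANC1 without M2rtTA, mean VIM was 2804 CPM with mCherry and 681 with OVOL2, while TPM2 was 890 and 863 CPM. Over lines VIM fell less with M2rtTA and TPM2 fell more. The promoter of TPM4 is shown because that gene moved apart from TPM2 and holds a CArG box, the site known to be bound by SRF in contractile genes. Each promoter is the 250 bases before a RefSeq transcription start (GRCh38.p14), 5′ to 3′ on the gene's strand. The table lists 1 start for VIM, 2 for TPM2 and 3 for TPM4, and the most upstream one is printed, which for TPM4 is also the one with the CArG box. VIM lies at chr10:17227991-17228240 (plus strand), TPM2 at chr9:35690057-35690306 (minus strand) and TPM4 at chr19:16067288-16067537 (plus strand). Capitals mark the CArG box.
VIM: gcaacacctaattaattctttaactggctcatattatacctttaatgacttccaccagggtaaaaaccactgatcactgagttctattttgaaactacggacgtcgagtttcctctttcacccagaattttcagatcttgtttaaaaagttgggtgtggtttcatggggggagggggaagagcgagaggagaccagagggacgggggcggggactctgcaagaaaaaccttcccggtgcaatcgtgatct
TPM2: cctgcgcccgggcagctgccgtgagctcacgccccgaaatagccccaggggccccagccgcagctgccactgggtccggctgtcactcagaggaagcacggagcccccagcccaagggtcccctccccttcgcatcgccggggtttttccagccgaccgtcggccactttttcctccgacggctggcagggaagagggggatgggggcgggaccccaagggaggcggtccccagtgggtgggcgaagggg
TPM4: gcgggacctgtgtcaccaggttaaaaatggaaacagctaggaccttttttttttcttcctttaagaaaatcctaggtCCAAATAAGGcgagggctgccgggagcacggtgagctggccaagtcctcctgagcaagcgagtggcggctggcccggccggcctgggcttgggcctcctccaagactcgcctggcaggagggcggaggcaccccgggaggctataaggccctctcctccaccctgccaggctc
RefSeq promoters were matched for 8 of the 10 members (not TAGLN or MYL9), as 16 windows of 300 bases that reach 50 bases past the start. The CArG box was searched only as the exact letters CCWWWWWWGG, where W is A or T. On either strand this form occurred in 1 of the 16, at the most upstream of the 3 TPM4 starts (173 bases before it). It was not at the other TPM4 starts, and it occurred in 1.29% of 35116 promoters of the same length. Sites that depart from it by 1 base were not counted, such as CCCTATATGG and CCTTGTTTGG in an ACTA2 window. CAGGTG or its reverse complement CACCTG, the E-box known to be bound by ZEB and SNAI repressors, occurred in 0 of 16 and in 20.59% of all promoters. CCGTTA or TAACGG, the core known for OVO proteins, occurred in 0 of 16 and in 3.07% of all. These letters were absent from these windows only.

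Of 28 tested other contractile and actin filament genes, 0 were higher and 7 lower over lines without M2rtTA (median -0.08), where 9.32% of all genes were higher and 8.81% lower. With M2rtTA 2 were higher and 10 lower (median -0.09), where 15.7% of all genes were higher and 17.3% lower. By line and without M2rtTA, 0 were higher and 5 lower of 26 in KP4, where 3.26% of all genes were higher and 3.56% lower. In PANC1 2 were higher and 0 lower of 27, beside 2.12% and 2.96% of all genes. In PK45H 0 were higher and 6 lower of 28, beside 3.58% and 4.81% of all genes. With M2rtTA the counts were 1 higher and 9 lower of 26 in KP4, beside 9.91% and 12.5% of all genes. PANC1 had 1 higher and 4 lower of 27, beside 5.76% and 8.18% of all genes. PK45H had 4 higher and 8 lower of 28, beside 7.45% and 8.4% of all genes. The counts of the lines were not tested against each other. Those lower in both arms were TAGLN2 (-0.42 ± 0.09 and -1.11 ± 0.10), a transgelin, ACTN1 (-0.66 ± 0.08 and -0.89 ± 0.08), an actin crosslinker, PALLD (-0.93 ± 0.19 and -1.20 ± 0.20), the actin scaffold palladin, and PDLIM7 (-0.32 ± 0.09 and -0.36 ± 0.09), which binds actin-anchoring proteins. The edgeR adjusted p-values of TAGLN2 were 0.00119 and 2.18e-11, and of ACTN1 6.33e-08 and 2.95e-11. For PALLD they were 0.000596 and 8.07e-06 and for PDLIM7 0.0139 and 0.00331. PDLIM7 was 0.48 ± 0.14 higher in PK45H with M2rtTA (adjusted p = 0.0332), against its average. Without M2rtTA its PANC1 mean was 27.59 CPM with OVOL2 against 27.99 with mCherry, while its KP4 and PK45H means were lower with OVOL2. Thinned to the smallest library total, PDLIM7 no longer passed in either arm (-0.24, adjusted p = 0.137, and -0.09, adjusted p = 0.559).

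Of 8 tested intermediate filament genes other than VIM and keratins, 0 were higher and 4 lower without M2rtTA (median -0.40), and 1 higher and 4 lower with it (median -0.28). Lower in both arms were SYNM, synemin, a partner of vimentin filaments (-1.21 ± 0.28 and -1.56 ± 0.27, adjusted p = 0.0016 and 2.4e-05), NES, nestin, another partner (-0.55 ± 0.19 and -0.64 ± 0.19, adjusted p = 0.0389 and 0.00832), and the nuclear lamins LMNB2 (-0.37 ± 0.12 and -0.75 ± 0.13, adjusted p = 0.0333 and 1.27e-05) and LMNB1 (-0.51 ± 0.18 and -0.45 ± 0.18, adjusted p = 0.0438 and 0.0487). SYNM was scarce, with 2 to 6 counts in KP4 OVOL2 libraries. Without M2rtTA it averaged 0.597 CPM with OVOL2 against 3.51 with mCherry in KP4 and 3.20 against 7.41 in PANC1. In PK45H these SYNM means were 1.67 and 1.65 CPM. NES was highest in PANC1, where without M2rtTA it averaged 42.24 CPM with OVOL2 against 46.55 with mCherry, and it fell further in KP4 and PK45H. LMNB1 changed least in PANC1 (4.51 against 4.80 CPM, and 4.24 against 4.36 with M2rtTA) and fell further in KP4 and PK45H. Without M2rtTA the LMNB1, LMNB2 and NES calls were lost in 12, 9 and 9 of the 45 fits that left out 1 library, and with M2rtTA LMNB1 in 27. Thinned, LMNB1, LMNB2, NES and SYNM no longer passed without M2rtTA (adjusted p from 0.114 to 0.286), and with it NES went to -0.31 (adjusted p = 0.339) and LMNB1 to -0.65 (adjusted p = 0.119). Among 24 tested regulators of actin dynamics and SRF, 2 were higher and 2 lower without M2rtTA (median 0.00) and 5 higher and 7 lower with it (median 0.01). ROCK2, a kinase that activates myosin, was lower in both arms (-0.30 ± 0.09 and -0.71 ± 0.09, adjusted p = 0.0144 and 4.73e-08), as was PFN2, an actin monomer binder and the gene most like VIM (-0.47 ± 0.09 and -0.69 ± 0.09, adjusted p = 0.000263 and 2.47e-07). ROCK2 averaged lower with OVOL2 in both arms of KP4 and PANC1. In PK45H it averaged 27.44 CPM with OVOL2 against 29.0 with mCherry without M2rtTA, and 19.76 against 44.05 with it. The ROCK2 call without M2rtTA was lost when thinned (-0.28, adjusted p = 0.134). The background for these lists is the 18.1% and 32.9% of all genes that passed over lines, with medians of 0.00 and 0.03.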

How the data were processed

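The authors deposited whole-number counts per gene symbol. The submitters' processing notes name kallisto 0.44.0 and GRCh38 without a role or order. The annotation, strand setting and rounding are not given in the sources used here. Samples were grouped by the titles and treatments in the labels. Counts were tested with edgeR 4.0.16 in R 4.3.3: filterByExpr by group, TMM scaling, a quasi-likelihood fit and Benjamini-Hochberg adjustment over all genes tested, two-sided, with a call at an adjusted p under 0.05. Each line was fitted with its 15 libraries, the comparisons over lines with 45 and the untreated lines with 15. The standard error is the absolute log2 change divided by the square root of F. CPM were scaled by TMM over all 51 libraries. Ratios used an exact permutation of labels within lines, two-sided. The members and lists were chosen with earlier results of these data known. Named genes were the 10 members, OVOL2, list genes called over lines in the same direction in both arms, and the 3 genes most correlated with VIM, TPM2 and CALD1. On counts simulated with known changes, the test recovered 27% of 2-fold and 95% of 4-fold changes in KP4 with M2rtTA (13360 genes), and 94% and 100% over lines (14343 genes). Each fold was given to 100 genes above a minimum mean count, a level that TAGLN did not reach. Unchanged genes gave 5 false calls in KP4 and 9 over lines. The simulation gave each gene the same mean in all groups and lines, a spread from the trend over genes, and the same fold in all lines. The members differed between lines in level and change. In the data 3057 of 13662 genes passed in KP4 with M2rtTA. For these reasons the rates for the members may differ. No pair of libraries within a group was a duplicate: the lowest chi-square per degree of freedom over 51 pairs was 16.3. Alternatives were RLE scaling, no filter, DESeq2 1.42.0, a replicate block, thinning, robust dispersion, only the groups compared, and leaving out each library.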

Additional observations from a re-analysis of the deposited data

Results flagged for a closer look

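The change of VIM with OVOL2 differed between the 3 lines, by a test of the difference itself (edgeR, 2 degrees of freedom), without M2rtTA (adjusted p = 0.00246) and with it (adjusted p = 1.01e-06). It was -2.22, -2.05 and -1.33 in KP4, PANC1 and PK45H without M2rtTA and -1.64, -1.92 and -0.43 with it. TPM1 differed between lines in the same way, at an adjusted p of 0.00524 without M2rtTA and 0.00543 with it, with a rise in PANC1 and a fall in PK45H. With M2rtTA the lines also differed in TPM2 (adjusted p = 0.000317), with changes of -2.23, -1.32 and -0.40, and in TPM4 (adjusted p = 0.000218), with changes of -0.71, 0.11 and 0.42. The difference between lines was near the threshold for MYL9 (adjusted p = 0.0313), with changes of 0.62, 1.56 and 0.13, and for ACTA2 (adjusted p = 0.0489), with changes of -1.41, -0.35 and 0.26.

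The change over lines differed between the arms with and without M2rtTA for 3 members. On average over lines VIM fell less with M2rtTA (difference 0.52, adjusted p = 0.00109). In PANC1 its changes lay close together, at -2.05 without M2rtTA and -1.92 with it, and the arms were not compared line by line. TPM2 fell more (difference -0.82, adjusted p = 0.0014). TPM4 was higher without M2rtTA, and the difference was -0.44 (adjusted p = 0.00664).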

How the results depend on the processing

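A set of values of the members and other named genes was recomputed under 7 alternatives. Within lines, for pairs of untreated lines and for the differences of the OVOL2 effect, this set held only values that passed. Values that came to pass there under an alternative were therefore not counted. In all, 783 values kept their direction and their side of the threshold, 64 kept the direction but no longer passed, and 6 turned sign. Of those that no longer passed, 28 came from thinning every library to the smallest total, which leaves fewer counts, and 15 from fitting only the groups compared, which leaves fewer libraries. That total was the 1165399 counts of HPAFII untreated replicate 2, a library in none of the OVOL2 comparisons. The lowest totals were 3727440 in KP4, 3367089 in PANC1 and 2439323 in PK45H, so thinning removed many counts from every library of these lines. None of the values that turned sign passed in the main setting: TPM1 over lines with M2rtTA (0.01 with RLE scaling, 0.01 with DESeq2 and 0.00 thinned, against -0.01), CNN3 over the same groups (0.08 thinned, against -0.19) and CNN1 between the untreated lines (-0.03 without a filter and -0.04 with the replicate block, against 0.01). Apart from thinning, the cause was not tested.

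Thinning lowered the counts of genes called with OVOL2 without M2rtTA to 324 in KP4 (from 932), 271 in PANC1 (from 671) and 534 in PK45H (from 1139). With M2rtTA it lowered them to 1729 (from 3057), 942 (from 1843) and 1042 (from 2153). Over lines they went to 1481 (from 2710) and 3254 (from 4923), the differences between lines to 160 (from 409) and 415 (from 1129), the difference with M2rtTA added to 449 (from 1154) and the untreated contrast to 3138 (from 4794). Control against untreated cells gave 41 in PANC1 (from 79) and 0 in PK45H (from 1), and M2rtTA in PK45H controls gave 1 (from 4). Thinned, 3 members passed in PK45H without M2rtTA (from 5), 1 in PK45H with it (from 2), and 3 each over lines without M2rtTA (from 6), over lines with it (from 5) and between untreated lines (from 6).

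Fits of only the groups compared called 532, 302 and 628 genes in KP4, PANC1 and PK45H without M2rtTA and 1424 in PK45H with it. They called 246 and 487 genes for the differences between lines, 23 for the PANC1 control against untreated cells and 1 for M2rtTA in PK45H. Members called went to 2 in PANC1 without M2rtTA (from 4) and to 0 in PK45H with it (from 2), the latter also without a filter. DESeq2 called 11, 191 and 26 genes for control against untreated cells in KP4, PANC1 and PK45H, 16, 23 and 75 for M2rtTA in control cells, and 649 genes with 4 members (from 409 and 2) for the difference between lines without M2rtTA. The PK45H control gave 2 genes (from 1) without a filter, with robust dispersion and with the replicate block.

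Leaving out 1 library at a time gave without M2rtTA from 471 to 886 genes (KP4), 343 to 700 (PANC1) or 701 to 1173 (PK45H), and with it from 1387 to 2193 in PK45H. The lowest came without KP4 OVOL2 replicate 2, PANC1 mCherry replicate 3, PK45H OVOL2 replicate 3 and PK45H mCherry + M2rtTA replicate 2. Members called ranged from 2 to 4 in PANC1 and 3 to 5 in PK45H without M2rtTA, and from 0 to 2 in PK45H with it. Control against untreated cells gave 0 to 1 genes (KP4), 27 to 75 (PANC1) or 0 to 5 (PK45H), and M2rtTA in control cells 0 to 1, 0 to 14 and 2 to 18. The CNN1 to CNN3 ratio without M2rtTA ranged from 0.34 to 0.60. Values that turned sign were CNN1 (-0.21 to 0.04) and OVOL2 (-0.27 to 0.20) over lines without M2rtTA, TPM1 over lines with it (-0.06 to 0.02), and CNN1 (-0.60 to 0.24) and MYL9 (-0.42 to 0.00) between untreated lines.

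The replicate numbers did not pair the libraries: deviations of same-numbered libraries had median correlations of -0.01, 0.00 and -0.01 in KP4, PANC1 and PK45H, and 3, 7 and 2 of 15 libraries correlated best with their own number. With the replicate block, 121 of 124 values of the set recomputed under the alternatives kept their direction and their side of the threshold. Of the counts of calls, 36, all but 1, stayed within 1.5 times (KP4 without M2rtTA, for example, went from 932 to 738 genes). The ratios were not run with the block. TPM4 in PANC1 without M2rtTA (adjusted p = 0.0576) and the ACTA2 difference between lines (adjusted p = 0.0609) no longer passed. Depth limits what can be seen of TAGLN, which had 18 counts or fewer in each library.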
